A study of Mus musculus with 24 samples.

Results

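The barcodes described here marked stem cell progeny that was found in the myeloid cells of blood but not, at the threshold used, in its lymphocytes. Within each of 3 recipient mice a barcode was taken when it held at least 0.01% of the reads of monocytes or neutrophils, at least 0.1% of the reads of any of 8 sorted populations, and less than 0.01% in both B cells and T cells. This rule found 30 barcodes, 10 in mouse 1, 11 in mouse 2 and 9 in mouse 3 (10 ± 1, SD, n = 3 mice), out of 1064 that reached 0.1% in a population of their mouse and 327974 distinct sequences in all files. The rule read the monocyte, neutrophil, B cell and T cell shares of all members, so these are given as descriptions and were not tested.

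Haematopoietic stem cells of C57BL/6 mice had been cultured and infected on day 5 with pBC008, a lentivirus that inserts a random DNA barcode into the genome. On day 4 after infection GFP+ cells of the Sca1+ cKit+ stem cell gate were sorted and mixed with CD45.2+ rescue cells from the Sca1- cKit+ progenitor gate, and the mixture was injected into CD45.2 male recipients of 5 weeks that had received 9 Gy of whole-body irradiation. All 8 populations of all 3 mice share this history, and there was no untreated group. After 2 months the animals' blood, hearts and kidneys were collected, and genomic DNA was sequenced from circulating monocytes, neutrophils, B and T lymphocytes, from cardiac macrophages with high or low Ccr2, and from renal macrophages labelled M1 and M2, with 1 sample of each per mouse. The markers of the sorts and the numbers of sorted cells are not given in the sources used here, and cells without a barcode, which can include the recipient's own, give no reads.

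Monocytes and neutrophils are short-lived cells that the bone marrow replaces continually, so their barcodes report the stem and progenitor cells active shortly before sampling. B cells are made in the marrow and T cells in the thymus, and both persist longer than circulating myeloid cells. Tissue macrophages can be replaced by monocytes that enter the organ through the chemokine receptor Ccr2, or can be maintained by division in place. A stem cell clone whose detectable progeny is myeloid but not lymphoid is called myeloid-restricted or myeloid-biased in lineage tracing.

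The 24 samples held 6808221 to 15745444 reads, so that 0.01% stood for 681 to 1575 reads. At or above that share the 95% Wilson interval of a member's share was at most 6.28% of its value to either side. The reads were counted after PCR without molecular identifiers, so these intervals cover counting error only. Shares count barcode copies within the barcoded part of a population rather than cells. Each mouse gave 1 sample per population, so the level of a single barcode in a single population has no replicate.

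The members were named by their mouse and a letter, in the order of the higher of their monocyte and neutrophil shares. All were 52 bases long, and 26 of 30 followed an alternation of G or C with A or T throughout, beside 90.6% of the 1064 barcodes. The sequences below belong to the largest members in blood myeloid cells, the largest in each macrophage subset, those most uneven between monocytes and neutrophils, and a pair with matching levels. They are written 5′ to 3′ as deposited, and a capital marks a base that breaks the alternation.
1A: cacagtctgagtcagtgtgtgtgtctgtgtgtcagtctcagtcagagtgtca
1B: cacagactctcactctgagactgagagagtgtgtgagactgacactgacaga
1C: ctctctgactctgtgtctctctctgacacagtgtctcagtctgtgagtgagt
1D: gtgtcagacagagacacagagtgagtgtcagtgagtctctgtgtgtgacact
1E: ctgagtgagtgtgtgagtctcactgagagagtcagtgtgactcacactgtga
1F: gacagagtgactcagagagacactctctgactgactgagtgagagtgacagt
1H: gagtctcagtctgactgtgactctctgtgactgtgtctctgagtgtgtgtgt
1I: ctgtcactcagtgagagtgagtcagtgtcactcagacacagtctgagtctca
2A: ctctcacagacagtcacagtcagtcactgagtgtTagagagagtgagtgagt
2B: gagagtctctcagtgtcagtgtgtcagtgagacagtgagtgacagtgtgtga
2C: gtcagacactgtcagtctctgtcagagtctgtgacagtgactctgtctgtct
2D: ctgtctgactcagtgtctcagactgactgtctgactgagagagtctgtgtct
2E: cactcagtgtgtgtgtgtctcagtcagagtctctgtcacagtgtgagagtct
2G: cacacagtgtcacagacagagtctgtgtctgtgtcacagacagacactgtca
2J: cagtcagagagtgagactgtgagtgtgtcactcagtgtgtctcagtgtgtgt
3A: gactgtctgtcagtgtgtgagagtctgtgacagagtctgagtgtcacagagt
3B: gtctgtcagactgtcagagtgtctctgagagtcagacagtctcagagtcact
3C: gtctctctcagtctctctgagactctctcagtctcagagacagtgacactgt
3D: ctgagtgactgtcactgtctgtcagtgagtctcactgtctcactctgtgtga
3E: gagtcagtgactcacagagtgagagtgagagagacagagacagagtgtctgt
3F: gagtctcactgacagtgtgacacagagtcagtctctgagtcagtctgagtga
3G: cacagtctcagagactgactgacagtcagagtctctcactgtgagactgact
3H: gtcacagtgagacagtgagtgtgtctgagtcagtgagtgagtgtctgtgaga
Members of the same mouse differed from each other at 18 to 35 of their 52 bases, and the nearest other barcode that reached 0.1% in the mouse was 13 to 18 mismatches away. No member was therefore a near copy of a larger barcode.

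The members were small. Together they held 0.967%, 0.869% and 1.78% of monocyte reads in mice 1, 2 and 3, and 0.609%, 0.910% and 2.08% of neutrophil reads. The largest, 3A, ranked 23 among the barcodes of mouse 3 in both monocytes and neutrophils, and the best monocyte ranks in the other mice were 42 for 1A and 34 for 2A, and the best neutrophil ranks 38 for 1B and 31 for 2A. No member was thus among the 20 leading barcodes of blood myeloid cells in its mouse.

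In lymphocytes the members were below the threshold but not without reads. Their B cell shares ran from 9.41e-05% (10 reads, in 3I) to 0.00941% (1I), with a median of 0.00347%, and their T cell shares from 3.16e-05% (4 reads, in 3G) to 0.00776% (3A), with a median of 0.000655%. Absence here means a share under 0.01% of reads, and the term without lymphoid output holds only to that level.

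The members were split by the population that carried them past the size threshold. In 17 members, 4, 6 and 7 in mice 1, 2 and 3, monocytes or neutrophils themselves reached 0.1%. The other 13 (6, 5 and 2) entered through a macrophage subset at 0.1% and had 0.0101% to 0.0559% of monocyte reads. For the 17 the rule used no macrophage value, so their macrophage levels are free of it. For the 13 a high macrophage level was a condition of entry and supports nothing. The B cell share was also set against the monocyte share, a ratio on which the split itself bears. Every one of the 13 had a lower monocyte share than any of the 17, and B cells were under 0.01% in all. The ratio could thus be higher in the 13 by construction. The B cell share itself had a median of 0.00359% in the 17 and 0.00284% in the 13. In the 17 the B cell share was 0.260% to 5.93% of the monocyte share, with a median of 1.49%. In the 13 it was 0.851% to 76.2%, with a median of 20.9%, and reached 76.2% in 1I, 67.2% in 2K, 46.5% in 1G and 43.7% in 1H. For these 4 barcodes the B cell share was thus under the limit but within 3-fold of the monocyte share that admitted them.

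The 17 members sized in blood, like most blood barcodes at 0.1% or more, were found in renal M1 macrophages at levels near those of monocytes. In M1 macrophages 16 of 17 reached 0.01%, beside 96.5% of the 171 barcodes, members included, with at least 0.1% of monocyte or neutrophil reads in their mouse. The share in M1 lay within 4-fold of that in monocytes for 16 of 17 (beside 86.5% of the 171), where folds were taken with 0.01% added to both shares, and for 14 of 17 (beside 83.6%) with nothing added. The median M1 share was 0.168% and the median monocyte share 0.2001%. Summed over these members, M1 macrophages held 0.623%, 0.411% and 1.90% of reads in mice 1, 2 and 3, against 0.819%, 0.801% and 1.75% of monocyte reads.

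Renal M2 macrophages of the same kidneys held less of them. The sums were 0.159%, 0.282% and 0.297% of M2 reads (0.246% ± 0.0759, SD, n = 3), below M1 (0.979% ± 0.807) in 3 of 3 mice. This was not particular to the members. Myeloid barcodes with both B and T cell output summed to 35.0%, 51.2% and 33.0% of M2 reads in mice 1, 2 and 3, against 91.8%, 94.3% and 93.2% of M1 reads. Single members were over 4-fold higher in M1 than in M2 in 5 of 17 cases, beside 31.0% of the 171 barcodes, and over 4-fold higher in M2 in 1 of 17, beside 18.1%. With nothing added to the shares these counts were 8 of 17, beside 35.1%, and 2 of 17, beside 18.7%. At the 0.01% level 16 of 17 were present in M2 macrophages, beside 99.4% of the 171.

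Most of the absences among these 17 were in the heart. Cardiac Ccr2hi macrophages held 11 of 17 members at 0.01% or more, beside 94.2% of the 171 barcodes, and Ccr2lo macrophages also held 11 of 17, beside 94.2%. Both cardiac subsets held 10 of 17 (beside 92.4%), and 5 of 17 were under 0.01% in both, beside 4.09%, or 7 of the 171 barcodes. These 5 were 1A, 3B, 3C, 3D and 3G. Summed shares were 0.129%, 0.213% and 0.179% of Ccr2hi reads and 0.0665%, 0.228% and 0.147% of Ccr2lo reads.

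Barcode 1A, the largest member of mouse 1, showed this gap clearly. It held 0.242% of monocyte, 0.179% of neutrophil, 0.301% of M1 and 0.0247% of M2 reads, but 0.000202% of Ccr2hi and 0.000167% of Ccr2lo reads (24 and 23 reads), with 0.00359% in B cells and 0.00143% in T cells. With 0.01% added to both shares, it was 8.95-fold higher in M1 than in M2 macrophages.

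In mouse 3 the gap recurred in 4 members. For 2 of these it was narrower, since 3B in Ccr2hi and 3D in Ccr2lo lay between 0.005% and 0.01%. Barcode 3C held 0.304% of monocyte, 0.314% of neutrophil, 0.313% of M1 and 0.0188% of M2 reads, but 0.000134% of Ccr2hi and 0.000299% of Ccr2lo reads, with 0.00109% in B and 0.00197% in T cells. Barcode 3D held 0.290% of monocyte, 0.172% of neutrophil, 0.352% of M1 and 0.0144% of M2 reads, with 0.000109% in Ccr2hi, 0.00825% in Ccr2lo, 0.000753% in B and 0.000237% in T cells. In both, the M1 share lay close to the monocyte share. Barcode 3G was the lowest of these in the heart, with 0.0747% of monocyte, 0.130% of neutrophil, 0.0288% of M1 and 0.00599% of M2 reads but 5 reads in each cardiac subset (4.18e-05% and 3.94e-05%), 0.000254% in B and 3.16e-05% in T cells. It was also the member most tilted to neutrophils, at 1.65-fold over monocytes with 0.01% added to both shares. No other member of the 17 was under 0.01% in M2 macrophages. The fourth, 3B, held 0.201% of monocyte, 0.328% of neutrophil, 0.306% of M1, 0.0251% of M2, 0.00769% of Ccr2hi, 0.000709% of Ccr2lo reads, with 0.00190% in B cells and 0.00493% in T cells.

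In M2 macrophages of the kidney these 5 members had a small part of their M1 share, and 3G was under 0.01% there. The M2 share was 8.22% of the M1 share for 1A, 8.21% for 3B, 6.01% for 3C, 4.08% for 3D and 20.8% for 3G. Low values were not particular to these 5, since it was 4.66% for 3A and 17.8% for 2C, which were present in the heart. The rest of the 17 lay at 24.55% (1C) or above, and the median of the 17 was 28.4%. How far 1 sorted renal population was carried into the other was not measured here.

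Another 2 members were found in a single cardiac subset. Barcode 3A, the largest of all, held 0.500% of monocyte, 0.690% of neutrophil, 0.441% of M1 and 0.0206% of M2 reads. In the heart it held 0.0186% of Ccr2lo and 0.00325% of Ccr2hi reads, with 0.00663% in B and 0.00776% in T cells. With 0.01% added to both shares, it was 14.8-fold higher in M1 than in M2. Barcode 2B held 0.198% of monocyte, 0.142% of neutrophil, 0.173% of M1 and 0.0492% of M2 reads, with 0.0251% in Ccr2hi and 0.000156% in Ccr2lo, 0.00110% in B and 0.00154% in T cells.

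The remaining 10 of the 17 were present in both cardiac subsets, at 0.0225% to 0.0897% of Ccr2hi and 0.0139% to 0.0659% of Ccr2lo reads. In mouse 1 barcodes 1B and 1C had nearly the same profile. Barcode 1B held 0.226% of monocyte, 0.202% of neutrophil, 0.168% of M1, 0.0602% of M2, 0.0377% of Ccr2hi, 0.0254% of Ccr2lo reads, with 0.00335% in B cells and 0.000912% in T cells. For 1C the shares were 0.2001% of monocyte, 0.177% of neutrophil, 0.154% of M1, 0.0377% of M2, 0.0349% of Ccr2hi, 0.0139% of Ccr2lo reads, with 0.00185% in B cells and 0.000297% in T cells. In both, M1 macrophages lay close to blood and the other 3 subsets well below it.

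In mouse 2 all 6 members sized in blood were present in Ccr2hi macrophages, against 2 of 7 in mouse 3 and 3 of 4 in mouse 1. Among all barcodes of that size in blood, members included, it was 55 of 55 (100%) in mouse 2, 41 of 47 (87.2%) in mouse 3 and 65 of 69 (94.2%) in mouse 1. In mouse 2 the members thus matched all blood barcodes of that size. Barcode 2A held 0.206% of monocyte, 0.253% of neutrophil, 0.0641% of M1, 0.0443% of M2, 0.0596% of Ccr2hi, 0.0498% of Ccr2lo reads, with 0.00588% in B cells and 0.00505% in T cells. Barcode 2C held 0.1001% of monocyte, 0.143% of neutrophil, 0.102% of M1, 0.0181% of M2, 0.0302% of Ccr2hi, 0.0483% of Ccr2lo reads, with 0.00363% in B cells and 0.00113% in T cells. Barcode 2D had the largest excess in M2 over M1 macrophages among the 6, at 3.84-fold, with 0.133% of M2, 0.0272% of M1, 0.137% of monocyte, 0.136% of neutrophil, 0.0479% of Ccr2hi, 0.0412% of Ccr2lo reads, with 0.00809% in B cells and 0.00373% in T cells. Barcode 2E held 0.0827% of monocyte, 0.134% of neutrophil, 0.0144% of M1, 0.0175% of M2, 0.0278% of Ccr2hi, 0.0586% of Ccr2lo reads, with 0.00395% in B cells and 0.00157% in T cells, and was also higher in M2 than in M1, by 1.12-fold. The folds of 2D and 2E given here had 0.01% added to both shares. On that basis both were near the 4-fold limit against monocytes, at 3.94-fold and 3.80-fold lower in M1.

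Barcode 1D stood apart from the other 16. It held 0.151% of monocyte but 0.0175% of neutrophil reads, the most uneven pair among the 17 at 8.67-fold (5.88-fold with 0.01% added), and 0.000112% of M1 reads (13 reads). Its level was 0.0563% in Ccr2hi, 0.0271% in Ccr2lo, 0.0358% in M2, 0.00588% in B and 0.00176% in T cells. With 0.01% added to both shares it was 16.0-fold higher in monocytes than in M1 macrophages and 4.53-fold higher in M2 than in M1. The added 0.01% far exceeded its M1 share, so the ratios of the shares themselves are much larger. This was the reverse of the common profile of this set.

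Blood barcodes of like size that also had lymphoid output were set beside the 17. Up to the share of the largest member in each mouse, 49 barcodes with 0.1% or more of monocyte or neutrophil reads reached 0.01% in both B and T cells. In Ccr2hi macrophages 47 of these 49 were present, in Ccr2lo 49 of 49, in M1 44 of 49 and in M2 49 of 49, against 11, 11, 16 and 16 of the 17 members. Their median Ccr2lo share was 0.160%, 0.289% and 0.334% in mice 1, 2 and 3, against 0.0196%, 0.0448% and 0.00825% in the members, while the median monocyte shares were 0.152%, 0.156% and 0.221% against 0.213%, 0.118% and 0.214%. In M1 macrophages the order was the other way in each mouse, with medians of 0.0256%, 0.0457% and 0.0753% against 0.161%, 0.0471% and 0.306% in the members, nearly equal in mouse 2. Another 9 barcodes of this size had B cell but no T cell output, and 7 were present in Ccr2hi, 5 in Ccr2lo and 9 in M1 and in M2 macrophages. Their median Ccr2lo share was 0.000149%, 0.04995% and 0.00807% in mice 1, 2 and 3, over 2, 4 and 3 barcodes. Low cardiac levels were thus also found among blood barcodes with B cell output. With 3 mice and members chosen from these data, no p-value is given for these differences.

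The 13 members that entered through macrophages were mostly cardiac and M2 barcodes with a trace in monocytes. In 12 of 13 monocytes held 0.0101% to 0.0339% while neutrophils held under 0.001%, a ratio of 24.3 (2G) to 461.1 (1F). This combination occurred in 6.61% of the 893 barcodes, members included, under 0.1% in blood myeloid cells, 59 in all, so 47 of those 59 had lymphoid output at the threshold. The 6.61% is no like background for the 12 of 13, since the rule asked every member for 0.01% in monocytes or neutrophils. Of the 893, 349 were under 0.01% in all blood populations and 252 had lymphoid output without myeloid. The opposite combination, neutrophils at 0.01% with monocytes under 0.001%, occurred in 0 of the 30 members and in 2.35% of the 1064 barcodes. These 12 would not count as blood barcodes from neutrophils alone.

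Barcode 2G was the largest of them in macrophages, with 0.636% of Ccr2hi, 0.563% of Ccr2lo and 0.344% of M2 reads, but 0.000838% of M1, 0.0223% of monocyte, 0.000916% of neutrophil reads, with 0.00371% in B cells and 0.00185% in T cells. In mouse 1 barcode 1H held 0.448% of Ccr2hi, 0.387% of Ccr2lo and 0.101% of M2 reads, with 0.000232% of M1, 0.0165% of monocyte, 0.000103% of neutrophil reads, with 0.00720% in B cells and 0.000287% in T cells. Barcode 3H of mouse 3 held 0.180% of Ccr2hi, 0.351% of Ccr2lo and 0.214% of M2 reads, with 0.000190% of M1, 0.0137% of monocyte, 0.000209% of neutrophil reads, with 0.00110% in B cells and 0.000229% in T cells. All 3 were high in the heart and in M2 macrophages together and close to 0 in M1. Barcode 2J held the highest M2 share of the 30, 0.361%, beside 0.126% of Ccr2hi, 0.213% of Ccr2lo, 0.000186% of M1, 0.0116% of monocyte, 0.000263% of neutrophil reads, with 0.00284% in B cells and 0.000253% in T cells.

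Over the 13, presence at 0.01% was 11 in Ccr2hi, 11 in Ccr2lo, 3 in M1 and 12 in M2 macrophages, beside 95.4%, 95.9%, 18.0% and 95.2% of the 893 barcodes. Over 4-fold higher levels in M2 than in M1 were seen in 11 of 13, beside 77.0%. These shares were near those of the 893, and the rule had used the macrophage levels. Barcode 1F had M1 reads as well, at 0.0290%, with 0.389% of Ccr2hi, 0.395% of Ccr2lo, 0.104% of M2, 0.0339% of monocyte, 7.34e-05% of neutrophil reads, with 0.00763% in B cells and 0.000287% in T cells. Barcode 1I, which came nearest to the lymphoid limit, held 0.123% of M2, 0.0480% of Ccr2hi, 0.0575% of Ccr2lo, 0.000112% of M1, 0.0124% of monocyte, 7.34e-05% of neutrophil reads, with 0.00941% in B cells and 0.000164% in T cells.

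The exception among the 13 was barcode 1E. It held 0.307% of M1, 0.0559% of monocyte, 0.0339% of neutrophil and 0.00788% of M2 reads. In the heart it held 8.42e-05% of Ccr2hi and 0.00790% of Ccr2lo reads, with 0.00195% in B cells and 9.22e-05% in T cells. With 0.01% added to both shares, it was 4.81-fold higher in M1 macrophages than in monocytes. It was under 0.01% in the heart and in M2 macrophages. On the same basis it was 17.7-fold higher in M1 than in M2, the highest such ratio of the 30. Over 4-fold higher levels in M1 than in monocytes were found in 1 of 30 members, beside 0.564% of the 1064 barcodes.

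In the 21 members present in both cardiac subsets the 2 levels were close. With nothing added to the shares, the higher was 1.02 to 3.30 times the lower, and 21 of 21 lay within 4-fold, beside 98.3% of the 995 barcodes present in both. In the 9 members under 0.01% in a cardiac subset the ratio ran from 1.06 to 161.3. It was 161.3 in 2B, which was higher in Ccr2hi, and 93.9 in 1E, 76.0 in 3D and 51.1 in 1J, which were higher in Ccr2lo. The lower level in these rested on few reads, 16 in 2B, 10 in 1E, 13 in 3D and 17 in 1J. Barcodes 1E, 3D and 1J were under 0.01% in both cardiac subsets.

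Some members were abundant in another mouse, where they had other outputs. In another animal 6 of 30 reached 0.1%, beside 4.79% of the 1064 barcodes. In mouse 3 barcode 2D held 1.90% of neutrophil reads, 1.63% of monocyte reads and 0.0521% of B cell reads. In mouse 1 barcode 2E held 0.492% of the reads of T cells and 0.275% of those of monocytes. Barcodes that were myeloid without lymphoid output in mouse 2 thus had lymphoid output in other animals. Barcode 1D held 0.313% of B cell but 0.000117% of monocyte reads in mouse 3, and 2G held 0.495% of B cell reads in mouse 1. Barcodes 3B and 1I had their highest level elsewhere in macrophages, at 0.477% of Ccr2lo reads in mouse 1 and 0.1004% of Ccr2lo reads in mouse 3. The other 24 members reached at most 0.0245% in other mice (2C in M2 macrophages of mouse 1). Whether a sequence shared by mice marked progeny of the same infected cell was not tested.

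The thresholds cut through a continuous range of shares, and the barcodes on either side of one were not alike in every population. In mouse 3 a barcode at 0.668% in monocytes, 1.02% in neutrophils and 0.572% in M1 macrophages was left out for 0.0106% of B cell reads, while 3A with 0.00776% of T cell reads was kept. In mouse 2 a barcode with 0.0108% of T cell reads was left out and 2D with 0.00809% of B cell reads was kept. For the myeloid limit, 2K was kept at 0.0101% of monocyte reads and a barcode at 0.00973% was not. For the size limit, 1J was kept at 0.101% of M2 reads with 0.00731% of Ccr2lo reads, and a barcode at 0.0955% of Ccr2lo reads was not. In all, 14 barcodes were left out for lymphoid shares between 0.01% and 0.02%, 10 for myeloid shares between 0.005% and 0.01%, and 12 for a largest share between 0.05% and 0.1%.

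Single barcodes were also tested across the 3 mice between the subsets of each organ with edgeR's quasi-likelihood test. Of the barcodes tested between M1 and M2 macrophages 0 of 1086 (0.0%) were called at Benjamini-Hochberg adjusted p under 0.05, among them 0 of 28 members that passed the filter on low counts, and 0 of these had an unadjusted p under 0.05 (8 of the 1086 did). Between Ccr2hi and Ccr2lo macrophages it was 0 of 1621 (0.0%) and 0 of 28 members, with 0 at unadjusted p under 0.05 in either set. DESeq2 gave a p-value to 169 of the 1086 between M1 and M2 macrophages and called 107 of these 169 (63.3%), all higher in M2. Of the 28 members it gave one to 6, and these were the 6 that were abundant in another mouse. Of these 6 it called 1D, 1I and 2G (adjusted p = 0.000779, 0.000165 and 0.000426), of which 1I and 2G had entered through their macrophage levels. Between the cardiac subsets DESeq2 gave a p-value to 296 barcodes, 10 members among them, and called 0 (0.0%), with 3 at unadjusted p under 0.05. Only 7 of 30 members reached 0.01% in another mouse, beside 16.3% of the 1064 barcodes, so for the others a test across mice has no replicate of their level.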

How the data were processed

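Barcodes were amplified from genomic DNA in 18 PCR cycles and then in 9 to 11 cycles that added sequencing indexes, per the labels' protocols. The authors deposited 1 file per sample with a raw read count for each distinct 52-base sequence. The trimming and counting of reads are not described in the sources used here. Titles gave each sample's population and animal, and a number shared by titles was read as the same mouse. Counts were divided by the sample total, and members were found by the thresholds given above (Python 3.11.15, pandas 2.3.3).

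The members, the lists and the tests were chosen with earlier results of these data known. Barcodes named with their sequence were, in each mouse, the 4 members with the highest monocyte or neutrophil share, the highest in each macrophage subset, and the most uneven between monocytes and neutrophils in either direction (0.01% added), 21 in all. Barcodes 3E and 3F, and other members named by letter alone, were chosen after their values were seen. Folds used shares with 0.01% added unless stated, which draws the ratio of low shares towards 1. Tests across mice used edgeR 4.0.16 with TMM normalisation and filterByExpr, without a block for the mouse, and DESeq2 1.42.0 as an alternative (R 4.3.3). The edgeR fit, the merging and the rule were tested on simulated data. For edgeR each simulated barcode had the same mean share in all 3 mice, unlike most members. That simulation therefore does not show which differences of the members edgeR could call. Nothing says that the samples of a mouse were processed in batches. Without the block, p-values rest on the spread between the samples of these 3 animals and ignore that each mouse gave both subsets. For the 23 members under 0.01% in every other mouse, that spread reflects their presence in a single mouse.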

Additional observations from a re-analysis of the deposited data

How the results depend on the processing

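Of 107 values recomputed under the alternatives, 95 stayed within the spread between mice or within 1.5 times a count. Leaving out a mouse cannot move a mean share or presence beyond that spread, so those values were bound to stay. Most edgeR alternatives repeated 0 calls for members that mostly lack a replicate of their level in another mouse. The 95 is therefore no measure of robustness. Requiring presence in both monocytes and neutrophils left 6.0 members per mouse, of which 17 of 18 were those sized in blood, and changed their summed share to 0.174% of Ccr2hi, 0.150% of Ccr2lo and 0.248% of M2 reads and the share present in M1 to 93.3%. A size threshold of 0.2% also left 6.0 per mouse. With 0.02% for presence and absence the summed M1 share was 2.39% and the share of members present in M2 72.1%, and with 0.005% the latter was 100%. These settings shared 20 and 19 members with the 30, and the split into 17 sized in blood and 13 others became 26 and 5 at 0.02%, 11 and 15 at 0.005%, 10 and 8 at a size of 0.2%, and 17 and 1 with both blood populations required. With nothing added before taking folds, chosen after seeing the data, 8 of the 17 were over 4-fold higher in M1 than in M2 macrophages and 2 the other way. Merging barcodes 1 mismatch apart kept 30 of 30, and thinning to 6808221 reads and removing barcodes 10 times as abundant in another mouse each kept 29. Leaving out each mouse gave 9.5 to 10.5 members per mouse. DESeq2 called 3 of the 6 members to which it gave a p-value between M1 and M2 macrophages, 2 of them chosen through their macrophage shares. With the mouse as a replicate block edgeR called 0 members in either organ, and so did library totals, a filter of 10 reads and leaving out each mouse. The block fit gave 2J a log2 change of M2 over M1 of -0.753, although 2J held 0.361% of M2 and 0.000186% of M1 reads. Its estimates for 2H, 2I and 2K were also negative against higher M2 shares. The calls with the block therefore say nothing on such members. The median log2 change of M2 over M1 was 4.16 with TMM, 5.45 with library totals and -0.07 with the block.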

Other observations

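Among the 136 pairs of members of the same mouse, 3E and 3F had the most constant ratio. Barcode 3E held 0.214% of monocyte, 0.237% of neutrophil, 0.263% of M1, 0.116% of M2, 0.0897% of Ccr2hi and 0.0659% of Ccr2lo reads, and 3F 0.167%, 0.206%, 0.198%, 0.0958%, 0.0779% and 0.0529%. In these 6 populations the share of 3E was 1.15 to 1.33 times that of 3F, although their sequences differ at 26 bases. The next pairs were 2A with 2F, at 1.66 to 2.64 times, and 1B with 1C, at 1.08 to 1.78 times. The pairs were picked for this likeness, with 0.001% added to each share, and it was not tested.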
